A study of Mus musculus with 6 samples.

Results

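The genes described here encode the contractile apparatus of smooth muscle cells and myofibroblasts: the actins Acta2 and Actg2, the thin filament proteins Tagln, Cnn1, Cald1 and Tpm2, the myosin subunits Myh11 and Myl9, the actin-bound protein Smtn and the intermediate filament protein Des. They were chosen by name, as every non-control probe whose gene name in the scanner tables was 1 of these 10. This gave 17 probes of the 41174 on the array, for 10 of 27745 gene names. Each probe is given separately. In a fit that set each ligated kidney against the opposite kidney of the same mouse, 8 of the 16 probes that could be tested were higher in ligated kidneys, none was lower and 8 did not pass the test. Of all 29093 probes tested in this fit, 15.3% were higher and 14.9% lower. The 8 higher contractile gene probes belonged to Cald1, Des, Tagln, Tpm2 and Myl9, with more than 1 probe for some of these genes. No probe of Acta2, which encodes alpha smooth muscle actin, passed.

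Renal fibrosis was studied after unilateral ureteral obstruction, in which the ureter of 1 kidney is tied. The ligated group held the left kidneys of 3 CD-1 mice (numbered 495, 485 and 512), and the contralateral group held their untied right kidneys. CD-1 mice are outbred and differ genetically from one another, and the contralateral kidney came from an operated animal, so it is not the kidney of an unoperated mouse. The labels call the material kidney in one field and primary cells in others, which the sources used here do not settle, and the age of the mice and the time after ligation are not given in the sources used here. Total RNA of each kidney was hybridised, with Cy3, to its own single-colour array, so each group had n = 3 and the p-values measure the spread of the difference within animals.

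Smooth muscle cells shorten when myosin, switched on through its regulatory light chain, pulls on actin filaments that tropomyosin, caldesmon and calponin decorate. In the normal kidney these proteins are found in arterial and arteriolar walls, in pericytes and in mesangial cells. After injury, interstitial myofibroblasts take on part of the same gene set, and alpha smooth muscle actin is the protein by which they are most often recognised. Many of these genes carry CArG boxes, the short A/T-rich elements bound by serum response factor (SRF), which acts with the coactivator myocardin or with the actin-regulated MRTF coactivators.

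The probe sequences show which stretch of each transcript the array read. The Acta2 probe below lies in coding sequence that is closely alike among all actins, and the other probes lie in coding sequence of their own genes. They are written 5′ to 3′ in the sense of the mRNA.
Acta2 A_51_P450957: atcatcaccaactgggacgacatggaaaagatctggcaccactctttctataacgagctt
Tagln A_52_P517683: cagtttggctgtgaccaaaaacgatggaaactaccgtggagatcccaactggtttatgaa
Cald1 A_52_P599578: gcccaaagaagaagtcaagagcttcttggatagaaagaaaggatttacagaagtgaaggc
Tpm2 A_52_P315976: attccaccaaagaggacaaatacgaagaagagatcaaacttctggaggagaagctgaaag
Myh11 A_51_P362429: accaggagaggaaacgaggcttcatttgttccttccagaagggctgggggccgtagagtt
Each probe was 60 bases long. Of the 17 probes, only Acta2 A_51_P450957 shared a run of at least 16 bases (17 bases) with an array probe of another name. That probe was named by a transcript cluster, TC1765066. How far other actin transcripts bound the actin probes was not tested.

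The file headers place the probes on mouse build mm8. Acta2 A_51_P450957 matched chr19:34314502-34317756 on the minus strand, a span of 3255 bases that crosses at least 1 intron, and Acta2 A_52_P420504 matched chr19:34307567-34307626, further towards the 3′ end of the same gene. The Tagln probes matched chr9:45681009-45681068 (A_51_P450527) and chr9:45681828-45681887 (A_52_P517683), and the Cald1 probes chr6:34703991-34704050 (A_51_P357573) and chr6:34683627-34683686 (A_52_P599578). Des A_51_P335969 matched chr1:75249977-75250202 and Myh11 A_51_P362429 chr16:14108708-14111632, each across at least 1 intron. Myl9 A_51_P308298 matched chr2:156473006-156473065.

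Promoter sequence was taken from RefSeq (build GRCm38.p6), 250 bases before to 50 after the gene start. It was found for 7 of the 10 genes, in 8 windows, since Cald1 has more than 1 start; Actg2, Tagln and Myh11 had no entry. The CArG box was searched on both strands, exactly, with at most 1 mismatch in the A/T core, and with at most 1 mismatch anywhere. Acta2 and Myl9 are shown because they carried the boxes nearest to the full motif, with the boxes in capitals.
Acta2, chr19:34255383-34255472, minus strand: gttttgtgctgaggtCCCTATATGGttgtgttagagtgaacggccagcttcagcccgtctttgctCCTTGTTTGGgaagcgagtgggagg
Myl9, chr2:156775283-156775332, plus strand: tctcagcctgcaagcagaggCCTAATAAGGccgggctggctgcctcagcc
Myl9, chr2:156775345-156775394, plus strand: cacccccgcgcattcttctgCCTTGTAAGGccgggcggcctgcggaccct
The Acta2 boxes began 84 and 34 bases before the start, with 40 bases between them, and each had 1 mismatch in its core. The first Myl9 box was exact, and the second had 1 core mismatch. A box with at most 1 core mismatch was thus in the windows of 2 of 7 genes. It was in 9.98% of all 32851 promoter windows, an exact box was in 1.63%, and a box with at most 1 mismatch anywhere in 21.1%. The first Cald1 window held a box with a mismatch at its end (GCTTTTTAGG), and none was found in the windows of Des, Tpm2, Cnn1 and Smtn. A match describes letters in this window and does not show a bound site.

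Signals below are scaled signals, meaning processed signals as a multiple of the 75th percentile of their array, with 1 being the level of a probe at that percentile. The scanner's own 75th percentile lay between 671 and 1432 signal units, and no spot was saturated. On the contralateral arrays 65.3% to 69.0% of probes were well above background, against 71.6% to 74.2% on the ligated arrays. All 10 markers of the proximal tubule and all 7 of the collecting duct were above background on all 6 arrays, so the RNA carried the kidney's own epithelial transcripts. A probe was tested if it was above background on all 3 arrays of a group, and called at an adjusted p under 0.05 (limma, Benjamini-Hochberg adjustment over 29093 probes). Changes are log2 fold changes, ligated minus contralateral, ± SE.

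Of all 29093 probes tested, 30.2% were called, 15.3% as higher and 14.9% as lower. Of the 16 contractile gene probes, 8 were called higher and 0 lower, and 11 had an unadjusted p under 0.05, as did 14454 of all 29093 probes. The fitted change was above 0 for all 16. Their median change was 0.98, where the median of all probes was -0.02. All 3 ligated kidneys lay above all 3 contralateral kidneys for 6 of the 16 probes, a pattern that 24.2% of all probes showed, and the groups overlapped for the other 10. The signal was higher in the ligated kidney of every mouse for 12 of the 16 probes, against 33.9% of all probes. In RNA pooled from many cells, more cells of a type and more RNA per cell cannot be told apart.

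**Figure D1:**
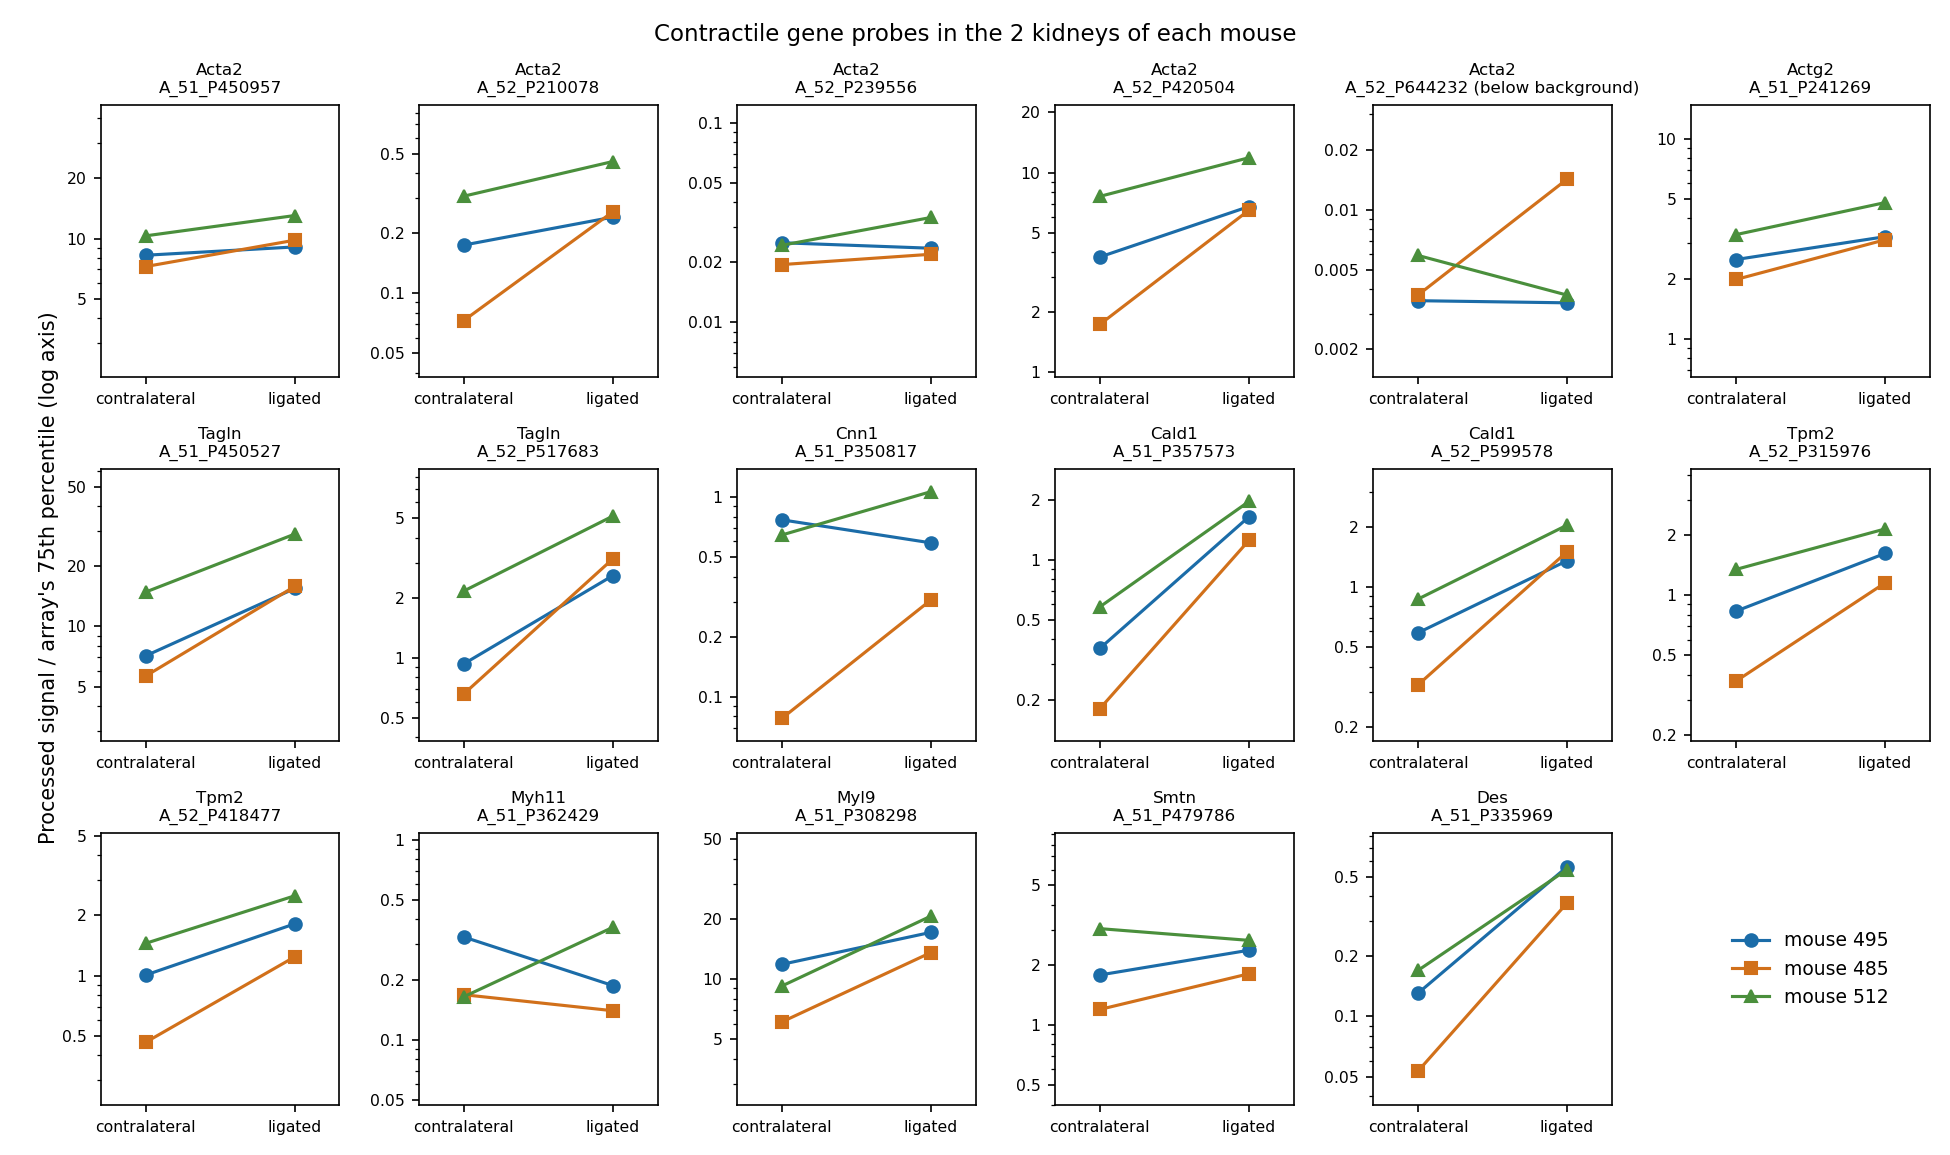
Scaled signal of each of the 17 contractile gene probes (log axis, with its own range in each panel) in the contralateral and ligated kidney of each mouse. Each line joins the kidneys of 1 mouse. The lines of Tagln, Cald1, Tpm2, Myl9, Des and Actg2 rise in all 3 mice, as do those of Acta2 A_51_P450957, A_52_P210078 and A_52_P420504. Those of Cnn1, Smtn, Myh11 and Acta2 A_52_P239556 do not run one way. Acta2 A_52_P644232 was above background on only 1 array.

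Acta2, the actin of vascular smooth muscle and of myofibroblasts, had 5 probes. None passed the adjusted threshold (limma), and A_52_P420504 and A_52_P210078 had an unadjusted p under 0.05. For Acta2 A_52_P420504, spotted 10 times on each array, the contralateral kidneys of mice 495, 485 and 512 read 3.78, 1.74 and 7.60, and the ligated kidneys 6.76, 6.48 and 11.9. Each ligated kidney was above its own opposite kidney, but the contralateral kidney of mouse 512 exceeded the ligated kidneys of both other mice, so the groups overlapped. The change was 1.13 ± 0.30, a 2.18-fold difference, with an adjusted p of 0.0568 (limma). It was the largest change of the 5 Acta2 probes and it fell just outside the threshold. Its spots agreed closely on every array, with an SD of 0.03 to 0.05 on the log2 scale over 10 spots, or 8 on the contralateral array of mouse 512, where 2 spots were left out as outliers. Spot noise was thus small beside the difference between mice. The probe was called under quantile normalization (1.44, adjusted p 0.0404), with normexp, with the stricter filter on dim probes and with an intensity trend.

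Acta2 A_51_P450957, in the coding sequence shown above, read 8.25, 7.24 and 10.3 in the contralateral kidneys and 9.08, 9.81 and 13.0 in the ligated kidneys. Every ligated kidney was slightly above its own opposite kidney and the groups overlapped. The change was 0.30 ± 0.15 (adjusted p 0.171), and centring on the array median in place of the 75th percentile turned its sign, to -0.0017, while quantile normalization gave 0.75 and a call (adjusted p 0.0387). The change at A_52_P420504 exceeded that at A_51_P450957 by 0.70, 1.46 and 0.30 in mice 495, 485 and 512, a mean of 0.82 ± 0.59 (SD, n = 3). The exact two-sided sign-flip test gave p = 0.25, the smallest value that 3 mice allow, here and in every comparison of this kind below. These Acta2 probes therefore disagreed in size in every mouse but not in direction on this scale.

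The other Acta2 probes were dimmer. Acta2 A_52_P210078 read 0.174, 0.0731 and 0.306 in the contralateral kidneys and 0.241, 0.256 and 0.456 in the ligated kidneys. It was higher on the ligated side of every mouse, by 0.95 ± 0.33 (adjusted p 0.0911), with groups that overlapped through the contralateral kidney of mouse 512. Acta2 A_52_P239556 stayed between 0.0195 and 0.0335 on all arrays, with a change of 0.18 ± 0.17 (adjusted p 0.439) that turned to -0.23 under quantile normalization, -0.38 with normexp background correction and -0.13 when centred on the array median. Acta2 A_52_P644232 was well above background only on the ligated array of mouse 485 and was not tested.

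Actg2 encodes the gamma actin of enteric and other visceral smooth muscle. Its probe read 2.49, 1.98 and 3.32 in the contralateral kidneys and 3.24, 3.13 and 4.80 in the ligated kidneys. Each ligated kidney was above its opposite kidney, and the contralateral kidney of mouse 512 was above the ligated kidneys of both other mice. The change was 0.52 ± 0.15, with an adjusted p of 0.0600 (limma), so the probe was not called. It was called with the slide as the block (adjusted p 0.0477), under quantile normalization (0.74, adjusted p 0.0335), with normexp (adjusted p 0.0450) and with an intensity trend (adjusted p 0.0394).

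The thin filament genes held most of the calls, with 6 of 7 probes higher and a median change of 1.19. Tagln encodes transgelin (SM22 alpha), an actin-binding protein that is an early marker of smooth muscle. Tagln A_51_P450527 read 7.12, 5.64 and 14.9 in the contralateral kidneys and 15.5, 15.8 and 29.0 in the ligated kidneys. The groups did not overlap, though the contralateral kidney of mouse 512 came close to the ligated kidneys of the other mice. It rose by 1.19 ± 0.17 (2.28-fold, adjusted p 0.0265). Tagln A_52_P517683 read 0.934, 0.660 and 2.16 in the contralateral kidneys and 2.58, 3.13 and 5.13 in the ligated kidneys. Here too the groups did not overlap, and the probe rose by 1.65 ± 0.25 (3.14-fold, adjusted p 0.0275). In a fit without the mouse as a block both Tagln probes missed the threshold, at adjusted p 0.0828 and 0.0529.

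Cald1 encodes caldesmon, which binds actin and tropomyosin and restrains the myosin ATPase. For Cald1 A_51_P357573 the contralateral kidneys read 0.361, 0.180 and 0.582 and the ligated kidneys 1.64, 1.25 and 1.96. All ligated kidneys lay well above all contralateral kidneys, and the probe rose by 2.25 ± 0.25 (4.74-fold, adjusted p 0.0231), the largest change of the 16 probes. Cald1 A_52_P599578, in the coding sequence, read 0.590, 0.324 and 0.871 in the contralateral kidneys and 1.35, 1.50 and 2.04 in the ligated kidneys. It also separated the groups, and rose by 1.55 ± 0.27 (2.92-fold, adjusted p 0.0308). The change at the first probe exceeded that at the second by 0.99, 0.58 and 0.52 in mice 495, 485 and 512. A further probe, which the file names only by a transcript identifier and describes as caldesmon 1, is not among the 17 and rose by 1.96 (adjusted p 0.0243).

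Tpm2 encodes beta tropomyosin, the coiled coil that lies along the actin filament. Tpm2 A_52_P315976 read 0.832, 0.372 and 1.35 in the contralateral kidneys and 1.62, 1.15 and 2.15 in the ligated kidneys. Tpm2 A_52_P418477 read 1.01, 0.464 and 1.45 in the contralateral kidneys and 1.82, 1.24 and 2.51 in the ligated kidneys. Both probes were higher in the ligated kidney of every mouse, and in both the contralateral kidney of mouse 512 was above the ligated kidney of mouse 485, so the groups overlapped. They rose by 1.09 ± 0.24 (adjusted p 0.0407) and 1.02 ± 0.19 (adjusted p 0.0335). Neither was called after centring on the spike-in spots, without a filter on dim probes, without the mouse as a block, or with the slide as the block.

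Cnn1 encodes calponin, an actin-binding protein largely restricted to differentiated smooth muscle. Its probe read 0.770, 0.0781 and 0.647 in the contralateral kidneys and 0.591, 0.306 and 1.07 in the ligated kidneys. It was lower on the ligated side of mouse 495, by -0.38, and higher on that side of mice 485 and 512, by 1.97 and 0.72. The change was 0.77 ± 0.49 (adjusted p 0.269), and Cnn1 was the thin filament gene that was not called.

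Myl9 encodes the regulatory light chain whose phosphorylation switches on smooth muscle and nonmuscle myosin. Its probe read 11.9, 6.11 and 9.24 in the contralateral kidneys and 17.1, 13.6 and 20.7 in the ligated kidneys. The groups did not overlap. Myl9 rose by 0.95 ± 0.20 (1.93-fold, adjusted p 0.0377). The call was lost when arrays were centred on the median (0.64, adjusted p 0.0620) or on the spike-in spots (1.27, adjusted p 0.0731), and also without the filter on dim probes, without the mouse as a block and with the slide as the block.

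Myh11 encodes the smooth muscle myosin heavy chain, the most specific of these genes for differentiated smooth muscle. Its probe read 0.327, 0.168 and 0.164 in the contralateral kidneys and 0.187, 0.140 and 0.365 in the ligated kidneys. The ligated kidney was the lower of the pair in mice 495 and 485 (-0.81 and -0.27) and the higher in mouse 512 (1.15). The change was 0.03 ± 0.43 (adjusted p 0.963), with a negative sign under quantile normalization (-0.22), normexp (-0.09), centring on the array median (-0.28) and without mouse 512 (-0.54, adjusted p 0.0881). Its direction is therefore not settled by these arrays.

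Smtn encodes smoothelin, which is found with the actin filaments of contractile smooth muscle. Its probe read 1.78, 1.20 and 3.04 in the contralateral kidneys and 2.37, 1.81 and 2.65 in the ligated kidneys. It was higher on the ligated side of mice 495 and 485 and lower on that side of mouse 512, whose contralateral kidney had the highest value of the 6. The change was 0.27 ± 0.21 (adjusted p 0.356), and it turned to -0.04 when arrays were centred on the median.

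Des encodes desmin, the intermediate filament of muscle cells, which in the kidney also marks mesangial cells, pericytes and injured podocytes. Its probe, spotted 10 times, read 0.131, 0.0532 and 0.170 in the contralateral kidneys and 0.560, 0.369 and 0.543 in the ligated kidneys. Every ligated kidney exceeded every contralateral kidney. Des rose by 2.19 ± 0.26 (4.56-fold, adjusted p 0.0238). The SD over its spots was 0.051 to 0.153 on the log2 scale.

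**Figure D2:**
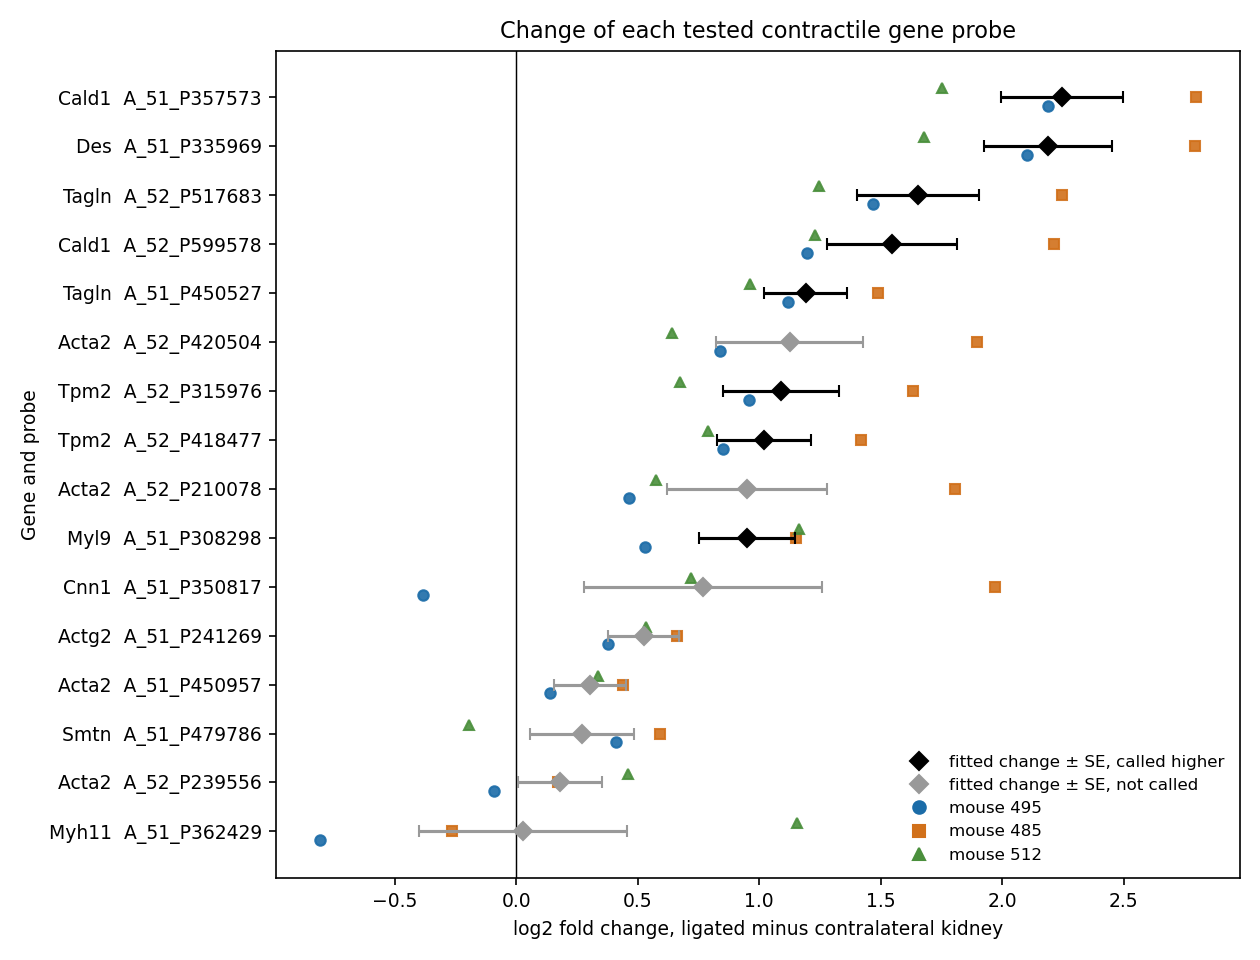
Log2 fold change (ligated minus contralateral) of the 16 tested contractile gene probes, ordered by size. Diamonds are the fitted change with its SE, black where called higher, and the coloured points are the differences within each of the 3 mice. Cald1 and Des lead at 2.25 and 2.19, and the 4 tested Acta2 probes spread from 0.18 to 1.13 without a call.

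The size of the change thus differed between genes of the same apparatus. Within each mouse, Des changed more than Acta2 A_52_P420504, by 1.26, 0.90 and 1.03 in mice 495, 485 and 512 (mean 1.06 ± 0.18, SD, n = 3, exact sign-flip p = 0.25). Cald1 A_51_P357573 exceeded the same Acta2 probe by 1.35, 0.90 and 1.11, and Tagln A_52_P517683 by 0.63, 0.35 and 0.60. Myl9 changed more than Myh11 by 1.34 and 1.42 in mice 495 and 485, and by 0.01 in mouse 512. Des exceeded Myh11 by 2.91, 3.06 and 0.52. The gap between Myh11 and these genes was thus wider in mice 495 and 485 than in mouse 512. Since 3 mice cannot give a p below 0.25 in this test, none of the 8 pairs compared could pass it, adjusted or not, and the pairs were picked after the changes were known.

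The mice also differed in the size of the change. The 16 probes differed by a median of 0.68 in mouse 495, while the same median was 1.56 for mouse 485 and 0.76 for mouse 512. Over all probes the medians were -0.02, -0.03 and -0.04 in mice 495, 485 and 512. Mouse 485 had the largest of the 3 differences for 13 of the 16 probes. The share of all probes with that pattern is not given here, so the count is not particular to these genes. The contralateral kidney of mouse 512 stood apart. It was above the contralateral kidneys of both other mice for 12 of the 16 probes, which held for 39.5% of all probes, and its median difference from their mean was 1.07, against -0.03 over all probes. For Acta2 A_52_P420504 it lay 1.57 above that mean, beyond the mean of the ligated kidneys of mice 495 and 485, which lay 1.37 above it. For Des and Cald1 A_51_P357573 it lay 1.03 and 1.19 above the mean, short of the ligated kidneys of the other mice at 2.45 and 2.49. That contralateral kidney also exceeded the mean of those ligated kidneys for the other tested Acta2 probes, Actg2, Cnn1, Smtn and, narrowly, Myh11. It was below that ligated mean for the Tagln, Tpm2 and Myl9 probes and the other Cald1 probe.

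**Figure D3:**
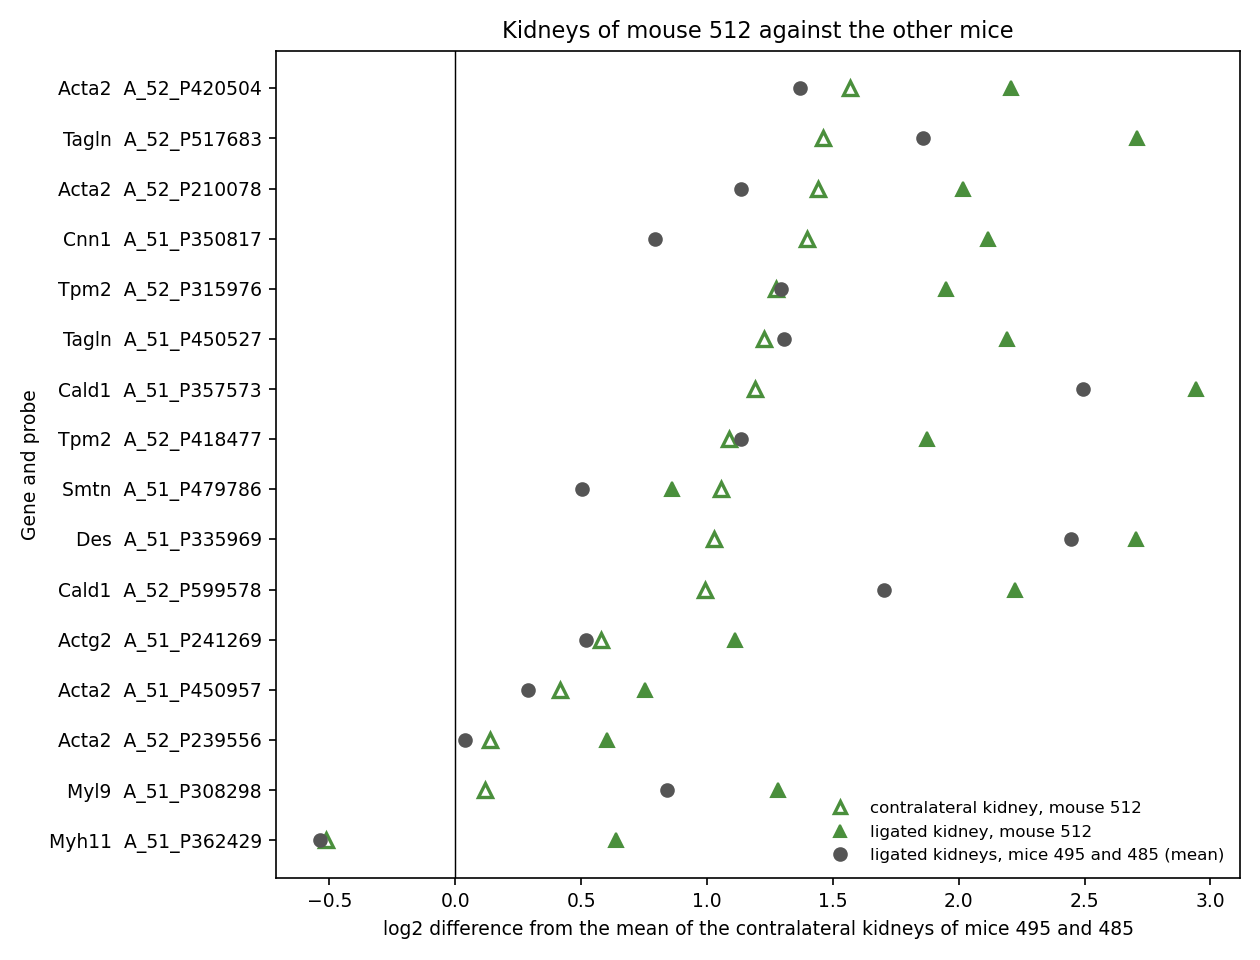
Log2 difference of each tested probe from the mean of the contralateral kidneys of mice 495 and 485 (vertical line at 0), for the contralateral and ligated kidneys of mouse 512 and for the mean of the ligated kidneys of mice 495 and 485. The contralateral kidney of mouse 512 (open triangles) lies right of 0 for every probe but Myh11. It lies right of the mean of the ligated kidneys of the other mice for every Acta2 probe shown, Actg2, Cnn1, Smtn and, narrowly, Myh11.

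Markers of other cells differed in that kidney too. The collagen gene Col1a1, a fibroblast product, read 2.02 and 0.496 in the untied kidneys of mice 495 and 485 but 13.1 in that of mouse 512, and the proximal tubule anion transporter Slc22a6 read 204 and 248 but 36.8. The array of this kidney also had the highest spot signal over local background of the contralateral arrays, 4.99 against 2.70 and 3.09. Mouse 512 had a slide of its own, while mice 495 and 485 shared one, so the slide and this mouse cannot be told apart. With mice 495 and 485 alone, 9 member probes were called, now with Acta2 A_52_P420504 (1.37). In an unpaired fit that left out only the contralateral kidney of mouse 512, an alternative chosen after the data had been seen, 9 were called. Acta2 A_52_P420504 then changed by 1.65 (adjusted p 0.0233) and A_52_P210078 by 1.43 (adjusted p 0.0463), while Myl9 was not called (0.99, adjusted p 0.0533). Without mouse 495 or without mouse 485 no probe on the array passed the adjusted threshold (limma). At an unadjusted p under 0.05 there were then 7194 and 7401 probes, of which 11 and 9 were contractile gene probes.

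Related proteins of the same families were compared by the brightest probe of each gene, for which 16.3% of 19597 genes were called higher and 15.2% lower. Among the relatives (other actins, calponins, tropomyosins, myosin subunits and intermediate filament proteins), 4 of 21 tested genes were higher and 0 lower, with a median change of 0.69 against -0.01 for all genes. These were Vim, the intermediate filament protein of mesenchymal cells (2.03 ± 0.36, adjusted p 0.0313), Cnn2, a calponin of nonmuscle cells (1.92 ± 0.19, adjusted p 0.0223), Acta1, the skeletal muscle actin (1.49 ± 0.33, adjusted p 0.0417), and the desmin partner Synm (1.04). At its other probe Vim changed by 0.91. The nonmuscle actins were not called. Actb changed by 0.29 ± 0.17 (adjusted p 0.245), with -0.41 at its other probe, and Actg1 by -0.03 ± 0.14.

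The regulators of the gene set were tested as a list of SRF, its coactivators and factors that act with or against them, of which 6 of 16 were higher and 0 lower (median 0.45). Srf itself rose by 0.65 ± 0.14 (adjusted p 0.0401), with contralateral signals of 1.01, 1.12 and 1.19 and ligated signals of 1.62, 1.86 and 1.72 that did not overlap. Among the called genes, the largest changes were in Fhl2, a LIM protein that binds SRF (2.17 ± 0.32), Klf5 (1.84 ± 0.45) and Klf4 (1.52 ± 0.24). Klf5 and Klf4 are zinc finger factors known from phenotype switching of smooth muscle. Fhl1 (-1.58 ± 0.46) and Csrp2 (-1.17 ± 0.39) went the other way and were not called. Myocd, the smooth muscle coactivator myocardin, changed by 1.55 ± 0.40 (adjusted p 0.0534) and was above background on 1 of 3 contralateral arrays. Mrtfa changed by 0.72 ± 0.20 (adjusted p 0.0623) and Mrtfb by -0.10 ± 0.22.

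Of other cytoskeletal genes known as SRF targets, 4 of 19 were higher and 0 lower (median 0.53). They included Fblim1 (2.18 ± 0.37, but 1.08 at its other probe) and Itga5, the fibronectin receptor subunit (1.80 ± 0.23). Flna, which crosslinks actin filaments, was also called (1.84 ± 0.36, but 0.43 at another of its 3 probes). Of the genes that control contraction, 8 of 21 were higher and 2 lower (median 0.41). The receptor for endothelin, Ednra, rose by 2.71 ± 0.30 (6.53-fold), the soluble guanylate cyclase subunit Gucy1a1 by 2.53 ± 0.42 and the cGMP-dependent kinase Prkg1 by 2.32 ± 0.29. The lower genes were Itpr1, an intracellular calcium channel (-0.92 ± 0.21), and Agtr1a, an angiotensin receptor (-0.65 ± 0.16). The kinase of the myosin light chain, Mylk, changed by 0.41 ± 0.14 (adjusted p 0.0911) and was not called.

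Markers of the cells that could carry these transcripts moved to different extents. Of 10 further smooth muscle markers, 3 were higher and 0 lower, with a median of 0.78 that turned to -0.06 with normexp. The called genes were Synpo2 (1.61 ± 0.19), Kcnmb1, which was above background on none of the contralateral arrays (at least 2.00-fold, the bright group over the detection level of the other), and Aoc3 (1.01 ± 0.22). The leiomodin gene Lmod1 changed by -0.13 ± 0.18. The summed scaled signal of this list was 15.6 to 18.6 in contralateral and 12.6 to 14.4 in ligated kidneys, so sum and median differed in sign, since a sum follows the brightest probes.

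Of 9 pericyte markers tested, 5 were higher and 0 lower (median 1.27), led by Pdgfrb, the PDGF receptor of pericytes and fibroblasts (2.23 ± 0.35), Mcam (1.54 ± 0.27) and Cspg4 (1.53 ± 0.27, but 0.17 at another of its 3 probes). Their sum was 12.0 to 39.0 in contralateral and 19.6 to 22.9 in ligated kidneys. It was dominated in the contralateral kidneys of mice 495 and 485 by Anpep, which is also a brush border enzyme of the proximal tubule. Of 12 fibroblast markers, 11 were higher and 0 lower (median 3.04), and the summed signal was 8.95 to 68.3 in contralateral and 137 to 270 in ligated kidneys. Col1a1 changed by 3.86 ± 0.90 and Col3a1 by 3.75 ± 0.81, but 2.37 at another of its 3 probes. The brighter Fap probe was above background only in ligated kidneys (at least 7.05-fold), and the other tested Fap probe changed by 1.57. All 3 juxtaglomerular markers were higher, namely Akr1b7 (1.92 ± 0.27), Ren1 (1.20 ± 0.14) and Ren2 (1.11 ± 0.14), with a sum of 4.85 to 6.13 in contralateral and 11.5 to 14.6 in ligated kidneys. At an unadjusted p under 0.05 (limma), 1 pericyte marker, 2 regulators and 1 family relative were lower. The part of each cell type in the change of the contractile genes was not tested.

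Other cell types that the sampled material could hold were checked in the same way. Of 7 striated muscle markers that could be tested, 4 were higher and 0 lower. The higher genes included Tnni2 (2.20 ± 0.36), Tnni3 (1.64 ± 0.17) and Tnnt2 (at least 3.47-fold). Mylpf (-0.55 ± 0.19, lower on the ligated side of every mouse) and Ttn (-0.22 ± 0.24) went the other way and were not called. A further 9 genes of that list were not tested. Of these, Myh4, Myh6, Myl1 and Myog were above background on no array, and Ckm, Myh1, Myh2, Myh7 and Tnnt3 on at least 1 array but not on all 3 of a group. The summed signal of the list was 0.842 to 1.95 in contralateral and 1.89 to 3.47 in ligated kidneys. No urothelium marker of 5 was called (Krt20 4.18 ± 1.22, adjusted p 0.0657), 4 uroplakin genes were not tested, and the sum was 0.206 to 0.965 in contralateral and 1.45 to 5.76 in ligated kidneys. Of 6 adipocyte markers, 2 could be tested and none was called (Cidec 2.26 ± 1.16, adjusted p 0.191). Lep and Ucp1 were above background on no array, and Adipoq and Plin1 on at least 1 but not on all 3 of a group. At an unadjusted p under 0.05 (limma), 5 striated muscle, 2 urothelium and 0 adipocyte markers were higher, and 1 striated muscle marker was lower.

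Endothelial markers were higher for 5 of 9 genes, including Cdh5 (1.31 ± 0.14), Plvap (1.11 ± 0.14) and Tie1 (0.97 ± 0.19), with a sum of 13.9 to 19.9 in contralateral and 22.1 to 27.1 in ligated kidneys. Leukocyte markers were higher for 6 of 9 (median 2.61, summed signal 16.7 to 85.4 and 195 to 221), among them the macrophage gene Adgre1 (3.42 ± 0.47), Lyz2 (3.24 ± 0.38) and Itgam (3.13 ± 0.66). Podocyte markers were higher for 3 of 6, with Wt1 at 1.90 ± 0.35, Ptpro at 1.33 ± 0.14, and Synpo at 1.42 ± 0.25 but -0.50 at its other probe. The tubule moved the other way. Proximal tubule markers were lower for 7 of 10 genes (median -2.41, summed signal 310 to 1499 and 140 to 229), with Slc22a8 at -4.10 ± 0.93, Slc22a6 at -3.60 ± 0.78 and Slc13a3 at -3.13 ± 0.46. Collecting duct markers were lower for 5 of 7 (median -2.05, summed signal 16.2 to 45.9 and 4.30 to 7.47), with the water channels Aqp2 at -2.88 ± 0.14 and Aqp3 at -2.66 ± 0.34, and Slc26a4 at -2.54 ± 0.26.

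**Figure D4:**
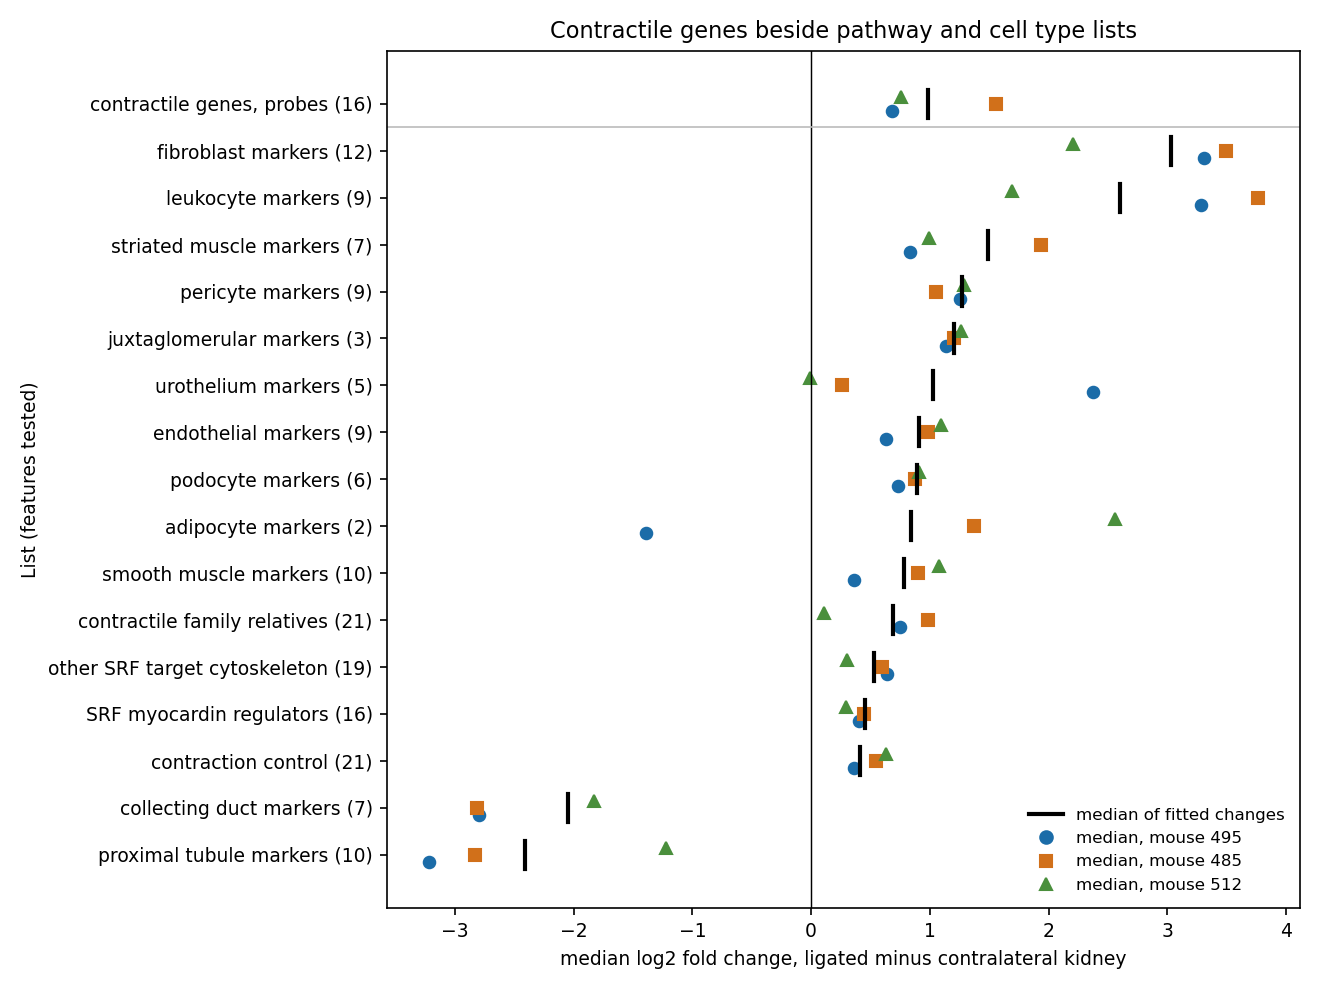
Median log2 fold change (ligated minus contralateral) of the contractile gene probes and of each pathway or cell type list, with the number of tested features in brackets. Black bars are the median of the fitted changes and coloured points the medians within each mouse. The contractile gene median is over probes, and each list median is over genes by their brightest probe. The contractile genes, at 0.98 (0.86 with 1 probe per gene name), lie between the fibroblast markers at 3.04 and the tubule markers at -2.05 and -2.41. Other lists lie near them, among them urothelium (1.03), endothelial (0.91), podocyte (0.89) and smooth muscle (0.78) markers.

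Probes like the brightest Acta2 probe were sought over all 6 arrays, by the distance between log2 profiles centred on their own means. The reference was A_51_P450957, the Acta2 probe with the highest mean, and 25528 probes above background on all arrays were ranked. The nearest named genes were Tspyl5 and Ankrd27, each at a distance of 0.10, followed by 3 probes named only by cDNA or cluster identifiers. Neither gene was called between the kidneys, with changes of 0.27 and 0.34. Of the contractile gene probes, the dim Acta2 A_52_P239556 was the nearest (0.344, rank 237), followed by Actg2 (0.353, rank 266). Tagln A_51_P450527 lay at 1.32, and the Acta2 probes A_52_P210078 and A_52_P420504 at 1.42 and 1.56. The probes of Acta2 thus lay both near to and far from the reference. The reference and A_52_P239556 both had small changes (0.30 and 0.18). The ranking therefore describes likeness to that reference probe and not to Acta2 as a whole.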

How the data were processed

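Of the 6 arrays, the authors deposited scanner tables whose processed signal is a linear intensity, background-subtracted and detrended by Agilent Feature Extraction, per the file headers (version 10.5.1.1; the submitters' processing notes name 9.1), with no scaling between arrays. Per the file headers, spot mean and local background are intensities without correction. The authors' deposited value table holds a linear ratio to the array median (100% of spots within 1%, all column medians 1). The deposited flags are 0 or 1. The members and lists were chosen with earlier results of these data known.

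Control spots were left out (43379 others per array) and outlier-flagged spots (43 to 79 per array) removed. The log2 processed signal minus the array's 75th percentile was averaged over the spots of a probe. Above background means that a share of at least 0.5 of a probe's spots carried the scanner's flag for it. On some array 24 probes had no unflagged spot, and these were dropped. Names came from RefSeq accessions for 24375 probes and from the file for 16799. limma 3.58.1 in R 4.3.3 (lmFit, eBayes, two-sided, Benjamini-Hochberg) was fitted to all probes with the mouse as a block, leaving 2 residual degrees of freedom plus 2.13 from the prior, and was tested on simulated data. Mouse numbers in the labels give the pairing, and deviations from group means correlated at 0.20, 0.47 and 0.28 between kidneys of mice 495, 485 and 512 (at most 0.02 between kidneys of different mice). Every member probe is reported. From each list the text names the 3 called genes of largest absolute change (where none was called, the gene of smallest p). Others were chosen after their values were seen (Synm, Actb, Actg1, Srf, Fhl1, Csrp2, Myocd, Mrtfa, Mrtfb, Itpr1, Agtr1a, Mylk, Lmod1, Anpep, Mylpf, Ttn). A fold given as at least sets the bright group's mean against the higher of the probe's own signal and the lowest signal well above background on each array. Alternatives were quantile normalization, centring on the array median or spike-ins, normexp (offset 50), the value table, other filters, other blocks, an intensity trend, 1 probe per gene name, flagged spots kept and each mouse left out. The number of arrays limits the precision.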

Additional observations from a re-analysis of the deposited data

How the results depend on the processing

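No alternative called a contractile gene probe lower. Cald1 and Des were called in every setting except without mouse 495 or without mouse 485 (both Cald1 probes, save with 1 probe per gene name, where only the brighter was tested). Against 8 of 16 member probes in the reported analysis, 5 were called after centring on the spike-in spots, 5 without a filter on dim probes, 5 (of 10) with 1 probe per gene name, 6 with the slide as the block, 7 with the array median or the value table, 9 with the stricter filter, 10 with normexp, 10 with an intensity trend, 11 with quantile normalization, and 0 to 9 with 1 mouse left out. The pairing mattered: with no replicate block 3 member probes (Cald1 and Des) were called. Over all probes, against 8780 calls (4444 higher, 4336 lower), 4632 were made after spike-in centring (3717 and 915), 4152 without the filter (2572 and 1580), 0 to 15878 with 1 mouse left out (0 without mouse 495 or mouse 485), and 15940 in the unpaired fit without the contralateral kidney of mouse 512, chosen after the data were seen. The causes were not tested. Scaling and background correction moved the split, to 3632 higher and 9013 lower with the array median or the value table, 3642 and 5036 with quantile normalization, and 2578 and 4132 with normexp; the median of all probes was then -0.33 (array median), -0.08 (quantile), -0.20 (normexp) and 0.30 (spike-ins), so changes are relative to the scale used.

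Signs turned for these changes, none of them called, and for 1 list median. With quantile normalization Acta2 A_52_P239556 was -0.23 and Myh11 -0.22. With the array median and with the value table Acta2 A_51_P450957 was -0.0017, A_52_P239556 -0.13, Myh11 -0.28 and Smtn -0.037. With normexp A_52_P239556 was -0.38, Myh11 -0.095 and the smooth muscle marker median -0.063. Myh11 ran from -0.54 (without mouse 512) to 0.44 with 1 mouse left out, and was -0.14 in the unpaired fit without the contralateral kidney of mouse 512. Calls were gained under quantile normalization for Acta2 A_51_P450957 (0.75, adjusted p 0.0387), A_52_P420504 (1.44, 0.0404) and Actg2 (0.74, 0.0335), for A_52_P420504 and Actg2 also with normexp and with an intensity trend, for A_52_P420504 with the stricter filter, and for Actg2 with the slide as the block (limma). Dim signals limit Acta2 A_52_P239556 and A_52_P644232, and 3 mice limit all calls.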
